A study of Rattus norvegicus with 448 samples.

Results

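Levels of the rat genes ENSRNOG00000032871, ENSRNOG00000017286, ENSRNOG00000062283 and ENSRNOG00000056688 fell into 2 classes of livers. The classes lay well apart in ENSRNOG00000032871 and nearly touched in ENSRNOG00000056688, where most libraries next to the split were of low depth. These genes are 4 of the 16796 in the deposited table and 4 of the 12234 tested, which reached 1 FPKM in 10% of the libraries or more. FPKM are sequenced fragments per kilobase of a gene, scaled for the size of its library. The genes were chosen on these same levels, for fitted modes over 3 units apart on the log2(FPKM + 1) scale, so the gap between modes is a description and carries no test. The table gives Ensembl IDs, and 0 of them occurred in the reference gene table used here. The genes are therefore called by their IDs, and nothing is said of their function, position or sequence.

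The libraries are liver RNA of outbred rats aged 17 weeks, snap-frozen, extracted with Trizol and sequenced as paired-end reads of 37 bases. The series served to map loci for metabolic traits and to look for genes there whose own level is under nearby genetic control. All libraries form 1 group, for which the labels name no genotype, sex, treatment or batch. The 430 libraries with a column of their own in the table were used, and 18 others in the labels are not analysed here. The labels do not say that each library is a separate animal, so p-values refer to these libraries and not to animals. Whether liver markers were high could not be checked without gene names. Whole reads were recovered from the steps between values. The recovered depth ran from 186324 reads in the shallowest library to 61309197 in the deepest, around a median of 24581254, and 25 libraries lay under 10000000.

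In an outbred population the level of a gene can differ between animals through variants in or near it, and relatives then tend to have like levels. As background, classes of level can also come from the physiological state of the animal, from another gene, or from reads that do not align to a divergent copy. In bulk tissue, fewer cells of a type and less RNA per cell cannot be told apart. None of these was tested.

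The 4 genes split into 2 kinds by the level of their lower mode. In ENSRNOG00000032871 all libraries of the lower mode lay under 1 FPKM, and in ENSRNOG00000062283 its median did, while 48 of its libraries lay at 1 FPKM or more. In ENSRNOG00000017286 and ENSRNOG00000056688 it lay near 10 FPKM, higher than the median level of most liver genes, so the name "off" does not describe these genes. Each library was put in a mode by the midpoint between the means of 2 fitted normal components.

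ENSRNOG00000032871 had the widest gap of the 4 genes on the log2(FPKM + 1) scale, an order that turned with a pseudocount of 5 (2.63, against 3.07 for ENSRNOG00000017286). Its upper mode held 86.3% of the 430 libraries, with 5.18 FPKM in the lowest, a median of 28.4 and 66.4 in the highest. Its lower mode held 59 libraries (13.7%), from 0.0366 FPKM to 0.421, with a median of 0.176. The classes did not come near each other: no library lay between 0.421 and 5.18 FPKM, an empty stretch of 2.12 (log2). The mode means were 0.24 and 4.81 (log2), a gap of 4.57 or 7.88 common SDs, and the median FPKM differed 161.4-fold. Among the medians of the 12234 genes, 0.368% lay below that of the lower mode and 79.4% below that of the upper mode.

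Reads of ENSRNOG00000032871 were few in its lower mode but not absent. These livers had 2 to 38 recovered reads of the gene, with a median of 14. Most of these read numbers were even (50 of 59), as they are when both mates of a pair are counted, so a number of fragments is smaller than the number of reads. The upper mode had a median of 1848 reads. The library lowest in the upper mode, LSW_226, was the shallowest of all, and its 5.18 FPKM rest on 2 reads. The next lowest had 8.46 FPKM in LSW_217, a library of 15557403 reads.

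ENSRNOG00000062283 was the gene with the most even classes. Its upper mode held 44.9% of libraries, from 5.91 FPKM to 119.8 with a median of 17.8. Its lower mode held 55.1%, from 0 to 4.34 FPKM with a median of 0.75. The mode means were 0.81 and 4.41 (log2), a gap of 3.59 or 6.51 SDs, and the medians differed 23.8-fold. The lower mode had a median of 24 reads, and 2 of its libraries had 0 reads, LSW_79 and LSW_423, of 7234276 and 8658473 reads in all. Its upper mode was the most spread of the 4 upper modes, with a coefficient of variation of 76.7%, against 32.6% to 42.4% in the others. The highest value of 119.8 FPKM came from LSW_268, a library of 4966020 reads, and the lowest of the upper mode, again LSW_226, from 1 read.

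ENSRNOG00000017286 was the most abundant of the 4 and had the fewest livers in its lower mode. Its upper mode held 93.5% of libraries, from 41.8 FPKM to 395.8 with a median of 142.7. Its lower mode held 28 libraries (6.51%), from 7.1 to 40.2 FPKM with a median of 11.9. All but 1 of these 28 lay at or under 20.1 FPKM. The exception, LSW_81 at 40.2 FPKM, lay 0.02 (log2) under the split and next to LSW_93 at 41.8 FPKM, so the classes of these livers are not settled. The mode means were 3.66 and 7.1 (log2), a gap of 3.44 or 6.89 SDs, and the medians differed 12-fold. The lower mode was far above 0 reads: its libraries had a median of 643 reads of the gene and up to 2005, and 62.4% of the genes tested had a median under 11.9 FPKM.

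ENSRNOG00000056688 had its lower mode in 33.5% of libraries, from 2.01 FPKM to 27.6 with a median of 9.47. The upper mode held 66.5%, from 30 to 195.3 FPKM with a median of 84.5. Here the classes nearly touched, since the widest empty stretch was 0.24 (log2), from 23.1 to 27.6 FPKM. Within 0.5 of the split lay 8 libraries, against 11 in ENSRNOG00000017286. Most libraries next to the split were shallow. The ends of the empty stretch were LSW_210 and LSW_389, of 5263448 and 8163283 reads. The lowest of the upper mode were LSW_226, LSW_79 and LSW_271, of 186324, 7234276 and 977966 reads. The mode means were 3.32 and 6.5 (log2), a gap of 3.18 or 6.37 SDs, and the medians differed 8.92-fold. The lower mode rested on 15 to 667 reads a library, and 57.3% of the genes tested had a lower median FPKM.

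**Figure D1:**
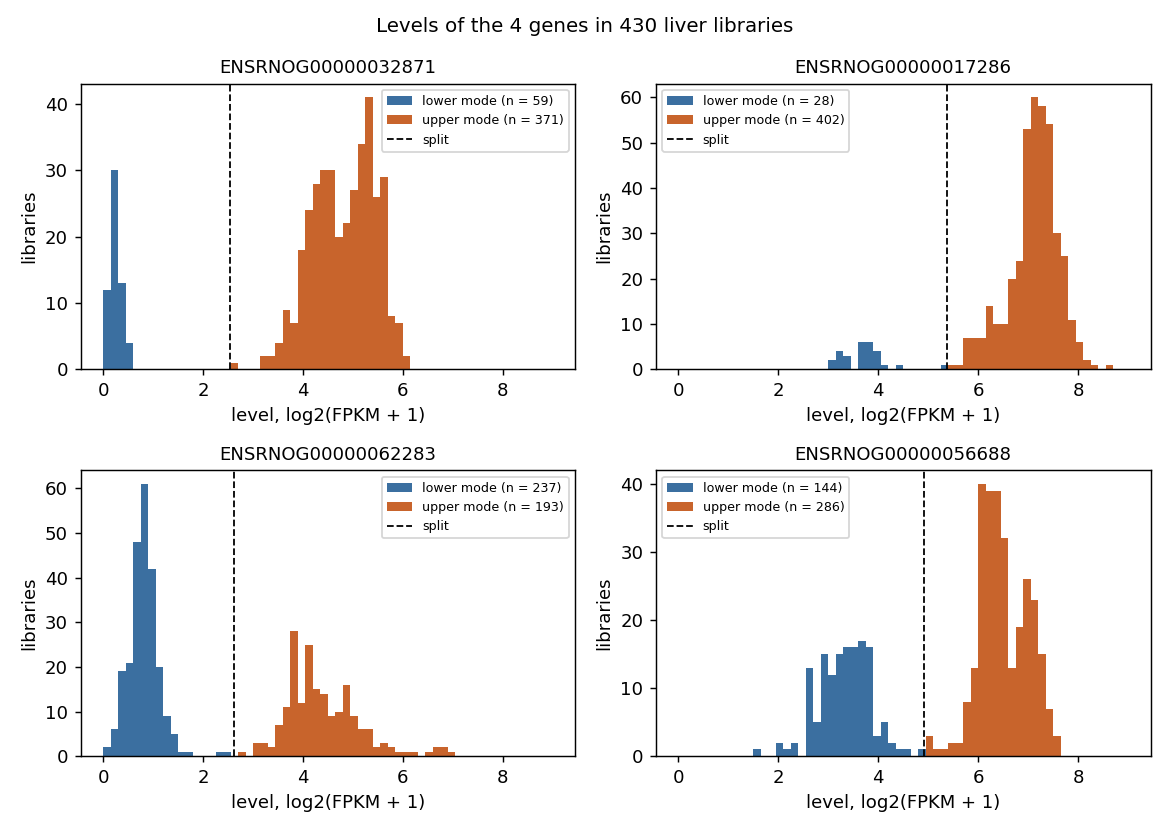
Histograms of the level of each gene, as log2(FPKM + 1), over the 430 libraries, with the lower mode in blue, the upper mode in orange and the split as a dashed line. The modes of ENSRNOG00000032871 are separated by an empty stretch of 2.12, while those of ENSRNOG00000056688 nearly meet, mostly in libraries of low depth.

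In the mixture fit to all genes, a call needed modes at least 4 SDs apart and a smaller mode with a weight of at least 5%. It also needed a gain of more than 10 in the Bayesian information criterion over a single component. The upper mean had to reach the lower quartile of the means of the genes tested. Under these limits 41 of 12234 genes (0.335%) had modes over 3 log2 units apart, the 4 genes among them. Of these, 9 (0.0736%) were also called when the 22 libraries in which the fewest genes were above 0 were left out, and after the first 5 principal components were removed. The 4 genes described here are those of the 9 with the largest distance in SDs, 6.37 or more. The other 5 had gaps of 3.08 to 4.01 and distances of 4.55 to 6.09 SDs. Just under the bound of 3, the next genes called in all 3 settings had gaps of 2.9 and 2.76. These values chose the genes and support nothing about them.

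How many levels the upper mode held depended on how the mixture was fitted. With a common variance, 3 normal components were preferred to 2 in ENSRNOG00000032871, ENSRNOG00000017286 and ENSRNOG00000062283, where the Bayesian information criterion fell by 75.3, 49.4 and 110, and not in ENSRNOG00000056688, where it rose by 9.4. In ENSRNOG00000032871 and ENSRNOG00000062283 the upper mode was wider than the lower one, with SDs of 0.62 and 0.11 (log2) in the first gene and 0.78 and 0.27 in the second. There, 2 components with variances of their own were preferred to 3 with a common variance by 63.7 and 80.8.

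With variances of their own throughout, 3 components were preferred to 2 by 19.1, 35.4, 11.1 and 15.2 in ENSRNOG00000032871, ENSRNOG00000017286, ENSRNOG00000062283 and ENSRNOG00000056688. The upper components then lay at 20.5 and 40.6 FPKM in ENSRNOG00000032871 and at 75.6 and 133.5 FPKM in ENSRNOG00000056688. In ENSRNOG00000062283 they lay at 14.8 and 23 FPKM with SDs of 0.24 and 0.87 (log2), a narrow one within a wide one. In ENSRNOG00000017286 their place moved with the variances, from 70.9 and 150.9 FPKM with a common variance, where 73 libraries lay within 0.25 (log2) of the midpoint, to 111.1 and 154.2 FPKM. A better fit by 1 more component can describe a skewed or wide mode as well as separate levels, so these fits do not show separate levels inside an upper mode.

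Whether livers went together in these classes was compared through the identifier that the labels share with adipose tissue samples. Its first part occurred more than once for 92 identifiers, 83 with 2 libraries and 9 with 3, which gave 110 pairs. The labels do not say what that part means. The choice of the genes did not use it. For comparison, 2350 pairs were neighbours in the series (first parts that differ, and no more than 6 between the numbers in their titles), and all other pairs numbered 89775. Pairs overlap in their libraries, so no p is given for shares of pairs.

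Libraries with a common first part were more often in the same mode in each of the 4 genes. For ENSRNOG00000062283, 83 of the 110 pairs (75.5%) had the same mode, against 48.5% of neighbouring pairs and 50.4% of all other pairs. For ENSRNOG00000056688 it was 82 pairs (74.5%), against 54.5% and 55.3%. For ENSRNOG00000032871 it was 94 pairs (85.5%), against 76.3% and 76.3%. For ENSRNOG00000017286 it was 93.6% of pairs, against 87.7% and 87.8%. Neighbouring pairs with different first parts thus had the same mode no more often than all other pairs in any of the 4 genes.

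**Figure D2:**
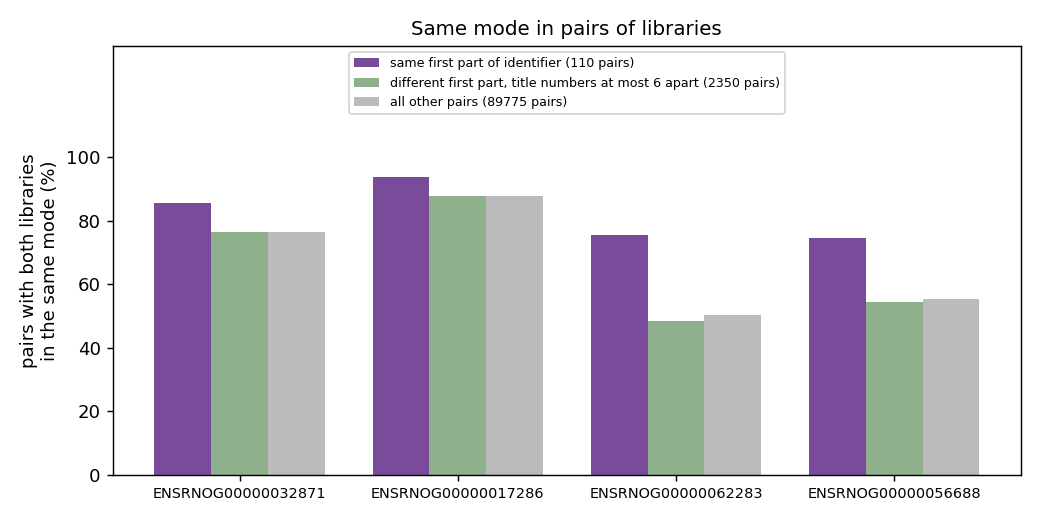
Share of pairs with both libraries in the same mode, in percent, for pairs with a common first part of the identifier, neighbouring pairs with different first parts and all other pairs. The first bar is the highest for each gene (75.5% for ENSRNOG00000062283), and the other bars of a gene are close to each other (48.5% and 50.4%).

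The rarer mode shows this more directly. When a library of a sharing pair was in the lower mode of ENSRNOG00000017286, the other was too in 53.3% of cases (8 of 15), while 6.22% of the libraries in such pairs were in that mode. For the lower mode of ENSRNOG00000032871 the share was 38.5% (10 of 26), against 11.9% of these libraries. For the lower mode of ENSRNOG00000056688 it was 66.7% (56 of 84), against 39.4%. For the upper mode of ENSRNOG00000062283 it was 69% (60 of 87), against 39.4%. The counts for the first 2 genes are small, with 4 and 5 pairs in which both libraries were low.

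Sharing libraries were far from always alike. Their modes differed in 16 pairs for ENSRNOG00000032871, 7 for ENSRNOG00000017286, 27 for ENSRNOG00000062283 and 28 for ENSRNOG00000056688. The levels in such pairs were a median of 4.34, 2.32, 3.07 and 2.91 (log2) apart, in the same order of genes. In pairs with the same mode they were 0.38, 0.21, 0.27 and 0.31 apart. Over the 4 genes together, 45 sharing pairs (40.9%) had the same mode in all 4, against 18.3% of distant pairs, and 54 had it in 3.

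**Figure D3:**
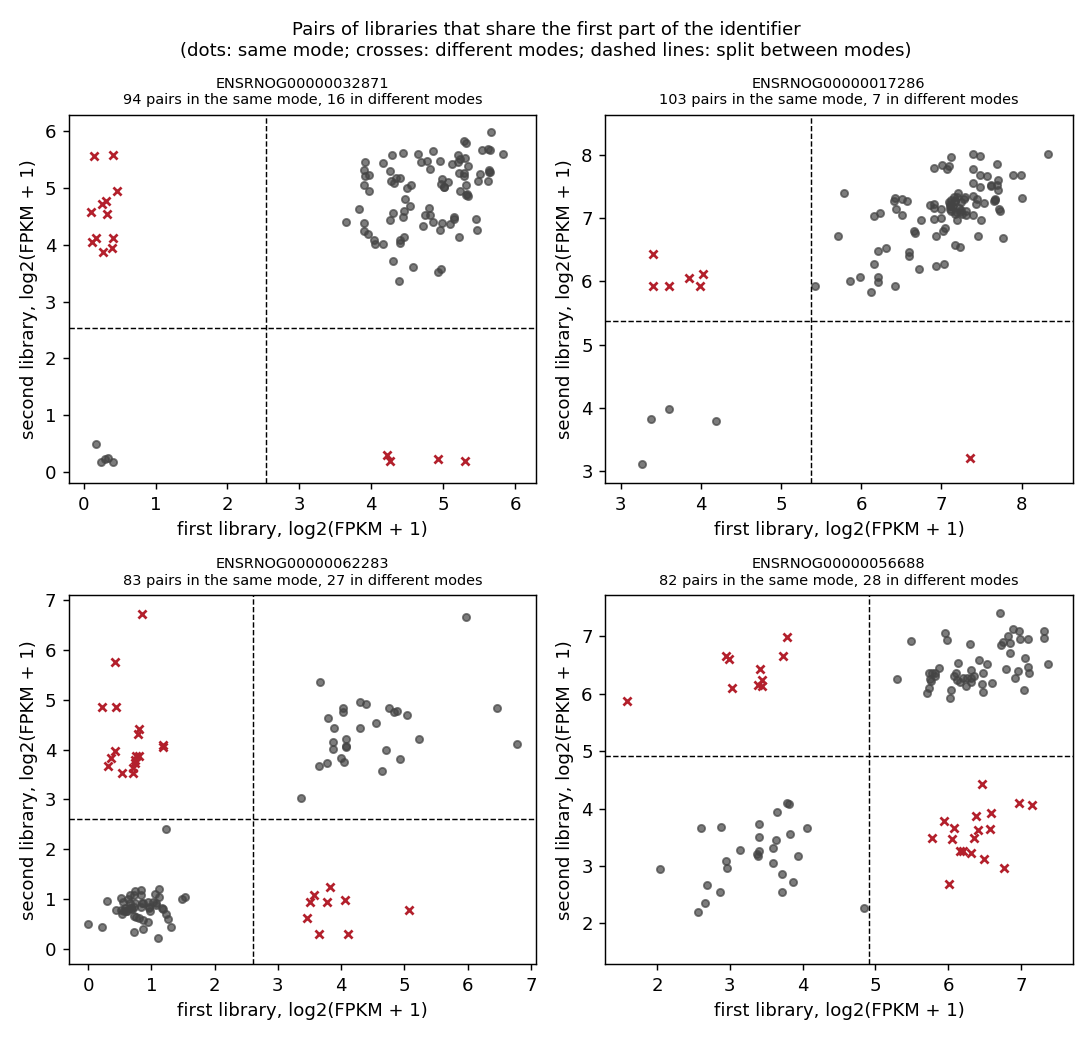
Each point is a pair of libraries with a common first part of the identifier, with the level of a gene, log2(FPKM + 1), in one library on the x axis and in the other on the y axis. Dots are pairs in the same mode and crosses are pairs in different modes, of which there are 16, 7, 27 and 28 for the 4 genes.

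The limma moderated F test over first parts of the identifier, with a spline of the title number as covariate, used levels and not modes. It passed in all 4 genes at an adjusted p under 0.05 (Benjamini-Hochberg over 12234 genes). Since 59.8% of all genes tested passed it, passing does not set these genes apart. The size of the resemblance is given by the intraclass correlation (ICC), which is the variance between identifiers as a share of the whole. Its median over the genes tested was 0.21. It was 0.67 in ENSRNOG00000017286 (adjusted p = 3.88e-12, limma), higher than in 99.9% of the genes tested. ENSRNOG00000062283 had 0.54 (adjusted p = 7.73e-08, limma) and ENSRNOG00000056688 had 0.52 (adjusted p = 3.3e-07, limma), above 99.1% and 98.7% of genes. ENSRNOG00000032871 had the lowest, 0.36 (adjusted p = 0.000466, limma), above 88.5% of genes. That order turned on normal scores, where ENSRNOG00000062283 had the lowest ICC, 0.35, above 88.4% of genes, and ENSRNOG00000032871 had 0.44, above 95.9%.

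On the log2 scale, the SD between identifiers was 0.79 in ENSRNOG00000017286 and the SD within them 0.56. The other 3 genes had between-identifier SDs of 1.34, 1.16 and 0.94 for ENSRNOG00000062283, ENSRNOG00000056688 and ENSRNOG00000032871, and within-identifier SDs of 1.24, 1.12 and 1.26. The test takes libraries as independent. When the 22 libraries in which the fewest genes were above 0 were left out, the share of all genes that passed fell to 27.4%, and the ICC of the 4 genes was 0.67, 0.53, 0.51 and 0.34 in the order just given.

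Resemblance was also seen among livers that were all in the upper mode. The correlation of levels over sharing pairs with both libraries in the upper mode was 0.62 for ENSRNOG00000017286 (99 pairs), 0.38 for ENSRNOG00000056688 (54 pairs), 0.36 for ENSRNOG00000062283 (30 pairs) and 0.34 for ENSRNOG00000032871 (89 pairs). Over neighbouring pairs in the upper mode it was 0.07, 0.01, 0.11 and 0.04. These are descriptions over pairs that overlap in libraries. With the upper mode of ENSRNOG00000017286 cut at the midpoint of its upper components with a common variance, sharing pairs fell on the same side in 81.8%, against 71.5% of distant pairs. The same cut gave 64% against 50.2% in ENSRNOG00000032871. In ENSRNOG00000062283 it gave 63.3% against 61.8%, so by this measure its 30 sharing pairs were hardly more alike than distant ones.

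The modes of the 4 genes were almost unrelated to each other over the 430 libraries. The correlations of modes lay between -0.09 (ENSRNOG00000032871 with ENSRNOG00000062283) and 0.05 (ENSRNOG00000017286 with ENSRNOG00000062283). There were 95 libraries (22.1%) in the upper mode of all 4 genes, while 50.5% were in the lower mode of 1, 24% in that of 2 and 3.49% in that of 3. None was in the lower mode of all 4. The most frequent combination, in 130 libraries, was the lower mode in ENSRNOG00000062283 and the upper mode in the other genes. Of the 28 livers low in ENSRNOG00000017286, 1 was also low in ENSRNOG00000032871.

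Median depth and position in the series moved little with the modes. The median recovered reads of libraries in the lower and upper modes were 25499308 and 24377590 for ENSRNOG00000032871, 24910669 and 24515208 for ENSRNOG00000017286, 24765890 and 24208379 for ENSRNOG00000062283, and 24858923 and 24194911 for ENSRNOG00000056688. The same 22 libraries held 0, 0, 8 and 11 lower-mode calls for the 4 genes in that order. Over all libraries the lower modes held 13.7%, 6.51%, 55.1% and 33.5%. The libraries with the fewest genes above 0 were thus all in the upper modes of ENSRNOG00000032871 and ENSRNOG00000017286, which the medians of depth do not show. The correlation of level with log10 reads was between -0.17 (ENSRNOG00000062283) and 0.04, and that with the first principal component of all genes between -0.1 and 0.15. The first 5 components together held 1.64% to 5.56% of the variance of a gene.

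The trend over the title number, fitted by limma over 12234 genes of which 8.18% passed, passed in none of the 4 genes. The slopes were -0.09 log2 per 100 title numbers for ENSRNOG00000032871 (SE 0.0623, adjusted p = 0.461, limma) and -0.08 for ENSRNOG00000056688 (SE 0.0587, adjusted p = 0.449, limma). For ENSRNOG00000017286 the slope was 0.03 (SE 0.0363) and for ENSRNOG00000062283 0.02 (SE 0.0697). None of the 4 passed at an unadjusted p under 0.05 either, the lowest being 0.153. In 4 consecutive blocks of title numbers the lower mode held 13.9%, 12.1%, 8.41% and 20.4% of libraries for ENSRNOG00000032871 and 6.48%, 8.41%, 5.61% and 5.56% for ENSRNOG00000017286. It held 57.4%, 50.5%, 55.1% and 57.4% for ENSRNOG00000062283 and 28.7%, 34.6%, 33.6% and 37% for ENSRNOG00000056688.

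Shares of sharing pairs in the same mode were also taken within the blocks, where pairs are few and differences between blocks were not tested. The share of pairs in the same mode, over 24, 18, 32 and 32 pairs, was 83.3%, 83.3%, 87.5% and 84.4% for ENSRNOG00000032871. It was 91.7%, 88.9%, 93.8% and 96.9% for ENSRNOG00000017286 and 75%, 77.8%, 75% and 71.9% for ENSRNOG00000056688. For ENSRNOG00000062283 it was 58.3%, 77.8%, 90.6% and 81.2%. In ENSRNOG00000017286 the share of 88.9% in 1 block is close to the 87.8% of all distant pairs, since most livers are in its upper mode.

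**Figure D4:**
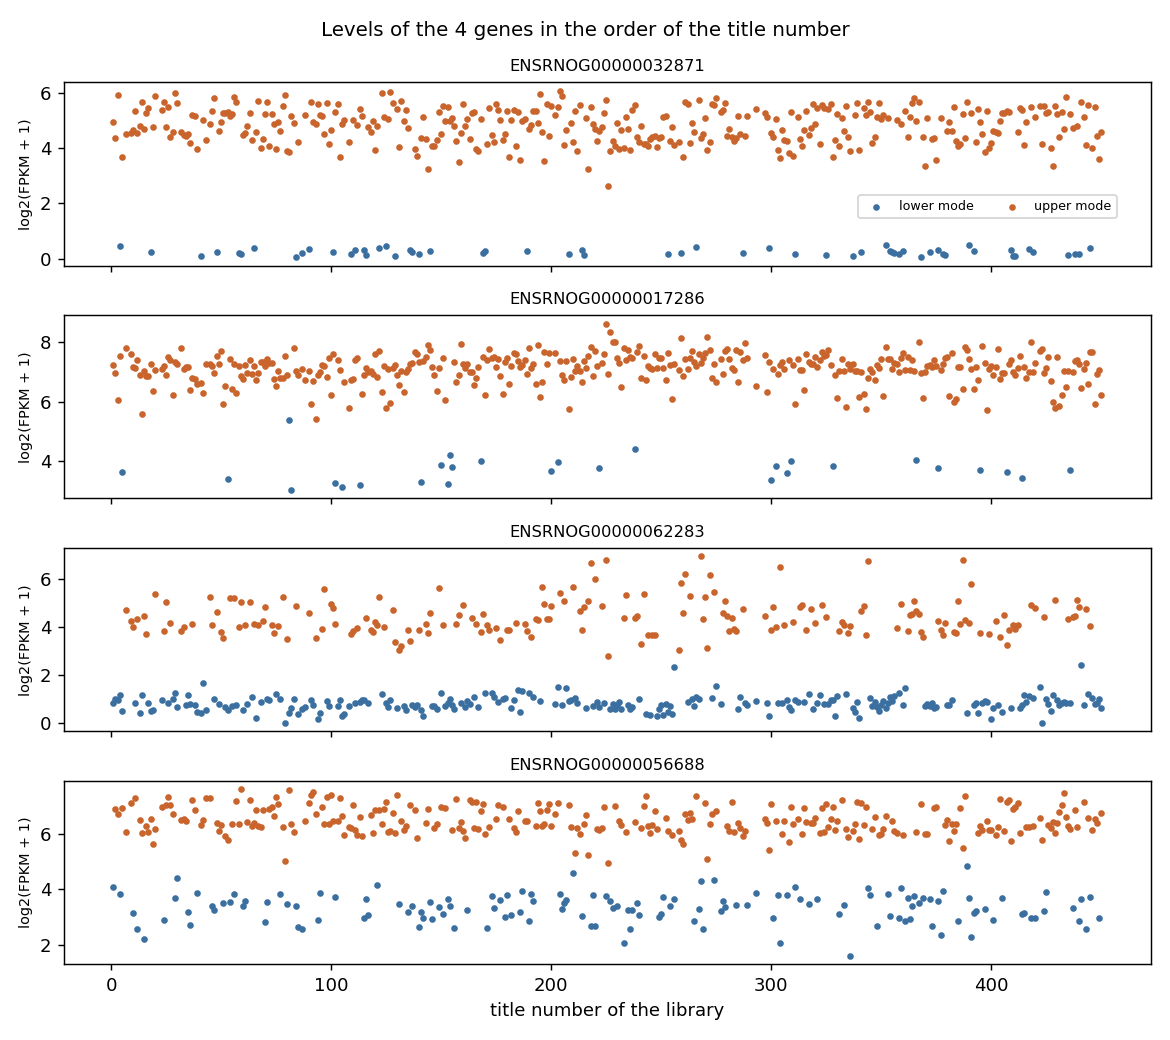
Level of each gene, log2(FPKM + 1), in every library against its title number, with the lower mode in blue and the upper mode in orange. Both modes of each gene occur along the whole range of title numbers, and in no block does the lower mode of ENSRNOG00000032871 hold over 20.4% of libraries.

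For genes that went with the 4, the Pearson r of all other 12233 genes was taken over the 430 libraries on the log2 scale. All genes come from the same libraries, so r is a description. For ENSRNOG00000032871 and ENSRNOG00000017286 no other gene reached the bound, an r of 0.5 in size. The highest r were 0.46 and 0.31 and the lowest -0.26 and -0.33. Removing the first 5 components brought none past the bound, at 0.49 and 0.34 for the highest and -0.35 and -0.44 for the lowest. The 0.49 of ENSRNOG00000032871 lay just under it.

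ENSRNOG00000062283 was tied to a pair of other genes. ENSRNOG00000028543 followed it with an r of 0.94, and ENSRNOG00000049269 with 0.88. The level of ENSRNOG00000028543 had a median of 16.1 FPKM (quartiles 13.2 and 20.9) in livers with the upper mode of ENSRNOG00000062283 and of 2.48 FPKM (1.95 and 3.19) in those with the lower mode. When split by its own 2 fitted modes, it was in the same mode as ENSRNOG00000062283 in all but 6 of the 430 libraries. Within the upper mode alone the r was 0.55 and within the lower mode 0.32, both lower than over all libraries. For ENSRNOG00000049269 the medians were 6.99 and 1.76 FPKM, and the r within the modes 0.72 and 0.39. Its own modes lay closer, 2.93 SDs apart, and 44 libraries were not in the same mode as in ENSRNOG00000062283. These genes were also correlated with each other (r = 0.88). Their ICC over identifiers was 0.55 for ENSRNOG00000028543 (adjusted p = 4.66e-08, limma) and 0.51 for ENSRNOG00000049269 (adjusted p = 6.8e-07, limma).

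A gene opposed to ENSRNOG00000062283 appeared after the first 5 components were removed. ENSRNOG00000017895 then had an r of -0.64, and before it -0.47. Its level was a median of 169.6 FPKM in livers of the upper mode and 212.4 FPKM in those of the lower mode. Within the upper and the lower mode, with no components removed, its r was -0.08 and 0.14.

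ENSRNOG00000056688 had 1 gene past the bound, ENSRNOG00000051912, which moved the opposite way over all libraries (r = -0.67, and -0.67 without the components). Within the upper mode the r was -0.59, but within the lower mode it was 0.54, so there the levels rose together. The pair fell into 3 states. In 33.5% of livers ENSRNOG00000056688 was in its lower mode and ENSRNOG00000051912 in the upper of its own 2 modes, with medians of 9.47 and 166.7 FPKM. In 42.6% of livers both were in their upper modes, with medians of 75.1 and 108.5 FPKM. In 24% of livers ENSRNOG00000056688 was in its upper mode and ENSRNOG00000051912 in its lower one, with medians of 126.5 and 38.9 FPKM. No liver had both in the lower mode. The quartiles of ENSRNOG00000056688 in the second and last states did not overlap (66.8 to 84.7 and 114.5 to 142.2 FPKM). The states cut its upper mode by a gene chosen for its r with it, so some difference in level between them follows from the cut. Whether the cut alone gives quartiles this far apart was not tested, and they are not taken as evidence of 2 levels.

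The FPKM of ENSRNOG00000056688 and ENSRNOG00000051912 together varied less than those of either. Their sum had a median of 175.6 FPKM in the first state, 183.9 in the second and 165.1 in the last. Its coefficient of variation over the 430 libraries was 20.8%, against 72.9% for ENSRNOG00000056688 and 48.9% for ENSRNOG00000051912. ENSRNOG00000051912 was picked for its opposed r, and a sum of unrelated levels can also vary less in proportion. The smaller spread of the sum thus follows in part from the choice. Whether the level of one gene makes up for the other was not tested. Recovered lengths were 1260 bases for ENSRNOG00000056688 and 2052 for ENSRNOG00000051912, so equal FPKM are not equal reads. Whether they are similar in sequence or divide reads between them was not tested, and their levels are uncertain to that extent. The states were looked at after the values were seen.

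**Figure D5:**
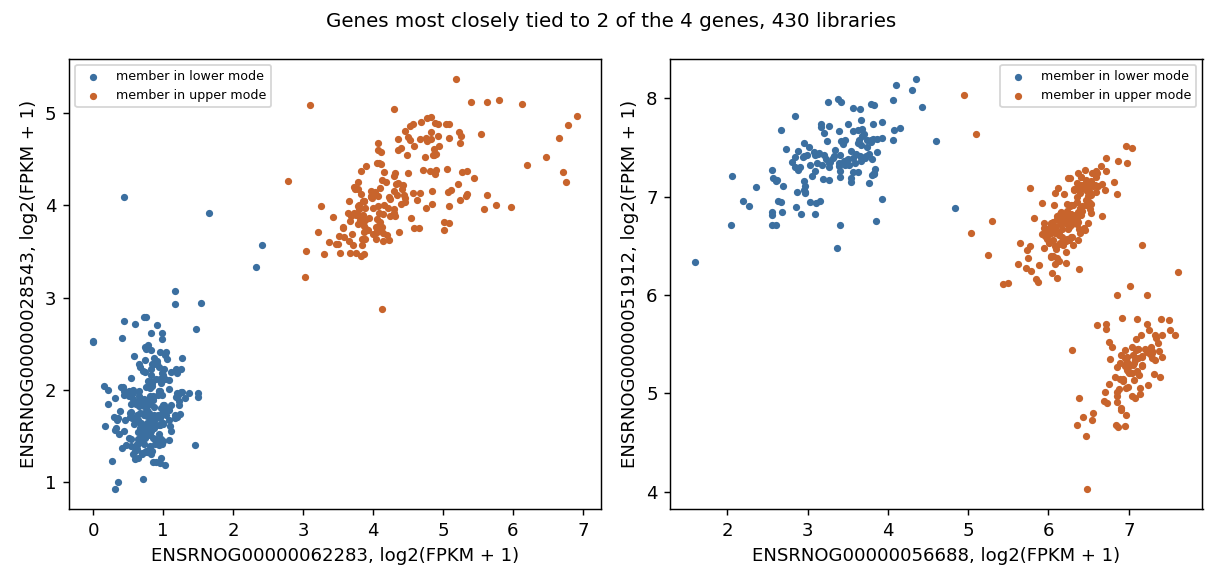
Levels, log2(FPKM + 1), of ENSRNOG00000062283 against ENSRNOG00000028543 and of ENSRNOG00000056688 against ENSRNOG00000051912 in the 430 libraries, coloured by the mode of the gene on the x axis. The first pair rises together with all but 6 libraries in the same mode, and the second forms 3 groups of 33.5%, 42.6% and 24% of libraries.

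Sharing libraries also went together in these 3 states. Of the 110 sharing pairs, 71 (64.5%) were in the same state, against 34.4% of neighbouring pairs and 34.9% of all other pairs. The states at the ends, where one gene or the other is in its lower mode, met in 2 sharing pairs (1.82%), against 16.1% of distant pairs. ENSRNOG00000051912 itself had an ICC of 0.55 (adjusted p = 3.19e-08, limma).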

How the data were processed

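The deposited table has no unit in its header. Per the submitters' processing notes STAR, Picard, featureCounts and DESeq2 were used, and their versions and roles, like the genome build, annotation and strand, were not stated by any source used. The deposited values were read as FPKM from the values themselves: 99.98% were whole reads within 0.001 once the step of each library and gene was recovered, 99.55% of well-resolved gene lengths were whole, and the values equal FPKM scaled by median-ratio size factors with a ratio of 0.9999. Depth here is thus a reconstruction. There was 1 column that matched no label, and it was not used.

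Levels are log2(FPKM + 1), which understates changes of low genes. Modes came from 2 normal components with a common variance. limma 3.58.1 was run over genes that reached 1 FPKM in 10% of the libraries or more, with a spline of 4 degrees of freedom for the F test and a threshold of 0.05. The fit of 2 components with a common variance, the F test and the trend were tested on simulated data, and the other steps were not. Named genes were the 4 chosen, and up to 3 each way with an r of at least 0.5 in size, before or after removal of 5 components. Family, neighbour, pathway and cell marker rules matched 0 genes. The genes and lists were chosen with earlier results of these data known. Alternatives were pseudocounts of 5 and 0.5, filters, component variances, splits, covariates, normal scores, rescaling and fewer libraries. Added after seeing the data were limma-voom on recovered reads, mixtures of 2 and 3 components with variances of their own, and leaving out libraries under 10000000 reads.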

Additional observations from a re-analysis of the deposited data

How the results depend on the processing

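The calls of the 4 genes in the F test over identifiers held in all 10 alternatives, with an ICC of 0.32 to 0.44 for ENSRNOG00000032871 (adjusted p up to 0.00213, limma), 0.61 to 0.68 for ENSRNOG00000017286, 0.35 (normal scores) to 0.55 for ENSRNOG00000062283 and 0.48 to 0.54 for ENSRNOG00000056688. The count of all genes past that threshold, 7319, became 4230 at 10 FPKM, where 6175 genes were tested, and 3355 when the 22 libraries with fewest genes above 0 were left out, and lay between 6961 and 10687 in the others. The trend over the title number passed in none of the 4 genes in any alternative (adjusted p 0.198 to 0.966, limma), while the 1001 genes past it became 1528 without those 22 libraries and 3079 with 5 components. The gap depends on the pseudocount where the lower mode is near 0: with a pseudocount of 5 it was 2.63 for ENSRNOG00000032871 and 2.15 for ENSRNOG00000062283, under the bound of 3, and with 0.5 it was 5.34 for ENSRNOG00000032871. The same pseudocount gave 2.73 for ENSRNOG00000056688, also under the bound, and 3.07 for ENSRNOG00000017286, then the widest, so the order of the gaps depends on it. A split at 1 FPKM put all 430 libraries in the upper mode of ENSRNOG00000056688 and of ENSRNOG00000017286, moved 48 libraries of ENSRNOG00000062283 and none of ENSRNOG00000032871. Shares of sharing pairs in the same mode kept within 1.5 percentage points in 4 alternatives. The causes of these changes were not tested. Leaving out the 25 libraries under 10000000 reads moved no gap by more than 0.09 (log2). Classes in LSW_226 rest on 1 to 34 reads. No paired analysis was possible because all libraries form 1 group.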
